A study of Mus musculus with 18 samples.

Results

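The genes described here are the 7 embryonic and adult globin genes of the mouse that the deposited matrices name, chosen by symbol out of 31053 mouse genes: the β-like genes Hbb-y, Hbb-bh1, Hbb-bs and Hbb-bt and the α-like genes Hba-x, Hba-a1 and Hba-a2. They were measured in 18 droplet single-cell RNA-seq libraries, each made from 1 mouse embryo collected at E8.5 (embryonic day 8.5), when organs begin to form. The study disrupted the DNA methyltransferases one at a time and compared each mutant with wildtype. All embryos were of the 129S4/SvJae background and came from matings of heterozygous parents, and genotypes were read by PCR from the ectoplacental cone. WT embryos gave 7 libraries (WT 1 to 7). By their labels, embryos null for Dnmt1, the maintenance methyltransferase, gave 3 libraries (Dnmt1 KO 1 to 3). Embryos null for Dnmt3a, a de novo methyltransferase, gave 4 libraries (Dnmt3a KO 1, 2, 13 and 14), and those null for Dnmt3b, the other de novo enzyme, gave 4 (Dnmt3b KO 1, 2, 11 and 12). The nulls lacked the gene in every cell of the embryo, so effects inside blood cells and effects on the whole embryo cannot be told apart.

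Haemoglobin is a tetramer of α-like and β-like chains, each carrying a heme. The first red cells of the mouse embryo, the primitive erythrocytes, arise in the yolk sac and make embryonic chains: ζ from Hba-x, εy from Hbb-y and βh1 from Hbb-bh1, together with adult α chains from Hba-a1 and Hba-a2. The adult β genes Hbb-bs and Hbb-bt are the β genes of definitive red cells, which are made later in the fetal liver and then in bone marrow. As primitive cells mature, the balance of their β genes is known to move from Hbb-bh1 to Hbb-y. Globin transcription depends on factors such as GATA1 and KLF1, which bind GATA and CACCC sequences.

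The β genes lie on chromosome 7 of GRCm38 within 40.7 kb, all on the minus strand. From the 5′ end of the cluster, Hbb-y (ENSMUSG00000052187) lies at chr7:103851749-103853216, Hbb-bh1 (ENSMUSG00000052217) at chr7:103841637-103843164, Hbb-bs (ENSMUSG00000052305) at chr7:103826534-103828096 and Hbb-bt (ENSMUSG00000073940) at chr7:103812524-103813996. The α genes lie on the plus strand of chromosome 11 within 20.9 kb, with Hba-x (ENSMUSG00000055609) at chr11:32276400-32278116, Hba-a1 (ENSMUSG00000069919) at chr11:32283511-32284465 and Hba-a2 (ENSMUSG00000069917) at chr11:32296489-32297298. These positions are from the GENCODE vM21 annotation.

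The promoters of 1 embryonic and 1 adult gene of each cluster are shown because the values below turn on these 4 genes. They are RefSeq sequences of GRCm38.p6, 5′ to 3′ on the strand of the gene, and each gives the 250 bases before the RefSeq start site. Capitals mark 3 short motifs, searched for on either strand without allowing a mismatch. The first is CACCC, the core of the sites to which the erythroid factor KLF1 is known to bind. The next is GATAA, to which GATA1 and related zinc finger proteins are known to bind in erythroid genes. The last is CCAAT, which is found near the start of many genes. The windows are chr7:103853208-103853457 for Hbb-y, chr7:103827929-103828178 for Hbb-bs, chr11:32276350-32276599 for Hba-x and chr11:32283422-32283671 for Hba-a1.
Hbb-y: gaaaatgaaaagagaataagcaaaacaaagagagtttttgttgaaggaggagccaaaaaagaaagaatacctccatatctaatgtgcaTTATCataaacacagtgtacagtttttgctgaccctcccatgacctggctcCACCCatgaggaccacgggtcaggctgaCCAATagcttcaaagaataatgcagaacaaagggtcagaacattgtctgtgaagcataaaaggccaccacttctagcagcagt
Hbb-bs: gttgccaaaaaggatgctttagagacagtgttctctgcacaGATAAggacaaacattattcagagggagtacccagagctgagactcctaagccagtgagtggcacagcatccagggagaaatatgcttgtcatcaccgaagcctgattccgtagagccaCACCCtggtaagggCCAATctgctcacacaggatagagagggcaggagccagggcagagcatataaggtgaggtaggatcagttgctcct
Hba-x: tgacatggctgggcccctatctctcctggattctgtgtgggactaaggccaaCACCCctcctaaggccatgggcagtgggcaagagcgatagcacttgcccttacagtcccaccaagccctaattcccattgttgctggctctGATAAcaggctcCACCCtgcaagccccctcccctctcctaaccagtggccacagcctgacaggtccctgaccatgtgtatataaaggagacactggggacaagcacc
Hba-a1: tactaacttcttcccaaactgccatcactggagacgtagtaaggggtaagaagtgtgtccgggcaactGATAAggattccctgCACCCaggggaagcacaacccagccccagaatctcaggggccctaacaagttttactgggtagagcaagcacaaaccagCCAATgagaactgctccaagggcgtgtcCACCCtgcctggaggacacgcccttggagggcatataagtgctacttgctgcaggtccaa

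The table of promoters matched 6 of the 7 genes (Hbb-bh1 is named only). No base belonged to more than 1 motif. Each of the 4 windows shown held CACCC and GATAA, and Hba-x was without CCAAT in these 250 bases. In Hbb-y the CACCC lay 111 to 107 bases before the start and the CCAAT 83 to 79 bases before it. In Hbb-bs they lay 90 to 86 and 76 to 72 bases before the start. Of 32851 promoters of the same length, 52.0% held CACCC on either strand, 22.6% GATAA and 33.8% CCAAT, so these letters are common and their presence is a description. All 6 windows held fewer CG dinucleotides, the sites that DNA methyltransferases act on, than the median promoter. Hbb-y and Hba-x held 1 CG each and Hbb-bt 0, under the lower quartile, while Hbb-bs held 2 and Hba-a1 and Hba-a2 4 each, against a median of 6 over all promoters (quartiles 2 and 16). Hba-a1 and Hba-a2 were identical over the 247 bases that aligned.

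The copies limit how adult genes can be told apart. The transcripts of Hba-a1 and Hba-a2 were 99.8% identical over 538 aligned bases, and 80.1% of the 50-base windows in the last 300 bases, where this 3′ protocol reads, occurred in both. For Hbb-bs and Hbb-bt identity was 92.7% and 36.7% of windows were shared. The split of UMIs (unique molecular identifiers, each counting 1 captured molecule) inside these pairs is therefore uncertain, and ratios below use their sums. The adult β genes of the 129S4/SvJae strain may also differ in sequence from those of the reference used for counting, which was not tested and limits what each Hbb-bs and Hbb-bt value stands for. Hbb-y and Hbb-bh1 were 73.6% identical and Hba-x and Hba-a1 64.9%, with 0 windows shared. The protocol counts 1 molecule per transcript whatever its length, so UMI counts of different genes were compared without dividing by length.

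Barcodes with at least 1500 mouse UMIs were kept, 128881 of 162336, or 1628 to 15427 per library. Kept libraries held 38742721 to 262580123 UMIs, with a median of 4052 to 56928 UMIs per cell. Dnmt1, the check of its label, was at 14.9 to 15.6 CPM (UMIs of a gene scaled to a library total of 1000000) in Dnmt1 KO against 83.7 to 114 in WT. Dnmt3a was at 7.59 to 11.8 CPM in Dnmt3a KO against 23.5 to 34.5 in WT, but also at 15.1 and 7.65 CPM under the labels Dnmt3b KO 11 and 12. Dnmt3b itself was at 54.4 to 68.3 CPM in the Dnmt3b KO libraries, inside the WT range of 35.9 to 87.1, so RNA did not check their label. The labels of Dnmt3b KO 11 and 12 are thus in doubt, and Dnmt3b KO below means the libraries so labelled. Dnmt3b KO 1 and 2 shared 12249 barcodes (86.5% and 79.3% of each), where the next pair of libraries shared 133, so they were counted as 1 replicate and the Dnmt3b KO group holds 3. Y-linked RNA was present in WT 2 alone among WT and in all KO libraries except Dnmt3b KO 12, so the sex of the embryo was nearly confounded with genotype. For 4 libraries (WT 1, Dnmt3b KO 11, Dnmt3a KO 1 and 13) the counting reference also held the human genome.

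In the WT embryos, globin RNA made up 0.301% to 3.68% of all UMIs (median 0.629%), and most of it came from few cells. Cells with at least 5% of their UMIs from the 7 genes, called globin-rich below, were 3.45% to 19.1% of WT cells (median 6.35%) and held 76.8% to 96.7% of all WT globin UMIs. Over all libraries there were 12610 such cells, or 11514 when the 1096 barcodes that were globin-rich in both Dnmt3b KO 1 and 2 were counted once. Cell totals below count them in each library. Dnmt3a KO libraries held 12.6%, 6.89%, 15.2% and 5.36% globin-rich cells (Dnmt3a KO 1, 2, 13 and 14) and Dnmt3b KO libraries 10.6%, 11.9%, 7.37% and 8.56% (Dnmt3b KO 1, 2, 11 and 12), all within the WT range. The Dnmt1 KO libraries stood below every WT library. They held 1.35% (95% exact binomial interval 0.849 to 2.04), 0.609% (0.382 to 0.920) and 1.21% (0.881 to 1.62) globin-rich cells, which were 22, 22 and 44 cells, and the intervals cover counting error only. The gap to WT depended on where the line was drawn. At 2% globin or more the Dnmt1 KO libraries held 3.50%, 2.27% and 3.05% of such cells and the WT libraries 4.78% to 20.3%, still without overlap. At 20% or more the groups overlapped, with 0%, 0.0830% and 0% in Dnmt1 KO 1 to 3 and 0.0230% to 4.94% in WT. Globin RNA was 0.147%, 0.115% and 0.156% of their UMIs.

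A few globin UMIs turned up in nearly all cells of some libraries. Cells without any UMI of 8 erythroid markers (among them Klf1, Gata1, Alas2, Hemgn, Epor, Slc4a1 and Nfe2) and with under 5% globin still held 39.5 to 816 globin CPM in WT libraries and 15.6 to 53.9 CPM in Dnmt1 KO libraries. These cells held 0.532% to 2.20% of the globin UMIs of WT libraries and 0.807%, 1.18% and 2.37% of those of Dnmt1 KO 1 to 3, a small part of the whole-library levels below. Globin-rich cells held 52.7%, 24.3% and 30.7% of the globin UMIs of Dnmt1 KO 1 to 3. A further 46.5%, 74.5% and 66.9% lay in cells under 5% globin with at least 1 UMI of an erythroid marker, which in WT held 2.09% to 21.9%.

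The embryonic β genes were the main β genes of these embryos. Hbb-y, which codes for εy globin, was at 145 to 8808 CPM in WT libraries (median 447). It was at 168.0, 89.3 and 152.8 CPM in Dnmt1 KO 1, 2 and 3. Only Dnmt1 KO 2 fell outside the WT range. The log2 fold change was −3.81 ± 1.31 (SE) and did not pass the test (edgeR quasi-likelihood test, adjusted p = 0.0299), which asked for an adjusted p below 0.01 together with a log2 change of 1 or larger. WT 1 stood far above the other WT libraries, the next of which had 2480 CPM, and without WT 1 the log2 fold change was −2.46 (edgeR, adjusted p = 0.0523).

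Hbb-bh1, which codes for βh1 globin, was at 973 to 9578 CPM in WT libraries (median 1976). It was at 502.8, 449.0 and 566.1 CPM in Dnmt1 KO 1 to 3, all below every WT library. It fell by 2.78 ± 0.70 on the log2 scale, which is 6.87-fold lower (edgeR, adjusted p = 0.00507).

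Hba-x, which codes for the embryonic ζ chain, was the most abundant of the 7 genes in each WT library, at 1667 to 18164 CPM (median 3370). It was at 672.2, 449.6 and 705.1 CPM in Dnmt1 KO 1 to 3, again below every WT library. It fell by 3.58 ± 0.80 on the log2 scale, 11.9-fold lower (edgeR, adjusted p = 0.00226).

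The adult α genes fell in the same libraries. Hba-a1 was at 144 to 2273 CPM in WT (median 367.5) and at 77.6, 69.6 and 88.7 CPM in Dnmt1 KO 1 to 3, a fall of 3.48 ± 0.86 on the log2 scale (edgeR, adjusted p = 0.00446). Hba-a2 was at 52.7 to 935 CPM in WT (median 131.6) and at 22.3, 23.3 and 24.3 CPM in Dnmt1 KO, a fall of 3.86 ± 0.92 (edgeR, adjusted p = 0.00331). No Dnmt1 KO library reached the lowest WT library for either gene.

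The adult β genes were read at low levels. Hbb-bs was at 24.1 to 467 CPM in WT libraries (median 82.1) and at 17.5, 54.8 and 17.8 CPM in Dnmt1 KO 1 to 3. Hbb-bt was at 4.1 to 79.9 CPM in WT (median 17.7) and at 5.9, 11.9 and 7.3 CPM in Dnmt1 KO. The groups overlapped for both genes, and neither difference passed the test, with log2 fold changes of −2.13 ± 0.88 for Hbb-bs (edgeR, adjusted p = 0.0653) and −1.44 ± 0.89 for Hbb-bt (adjusted p = 0.215).

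**Figure D1:**
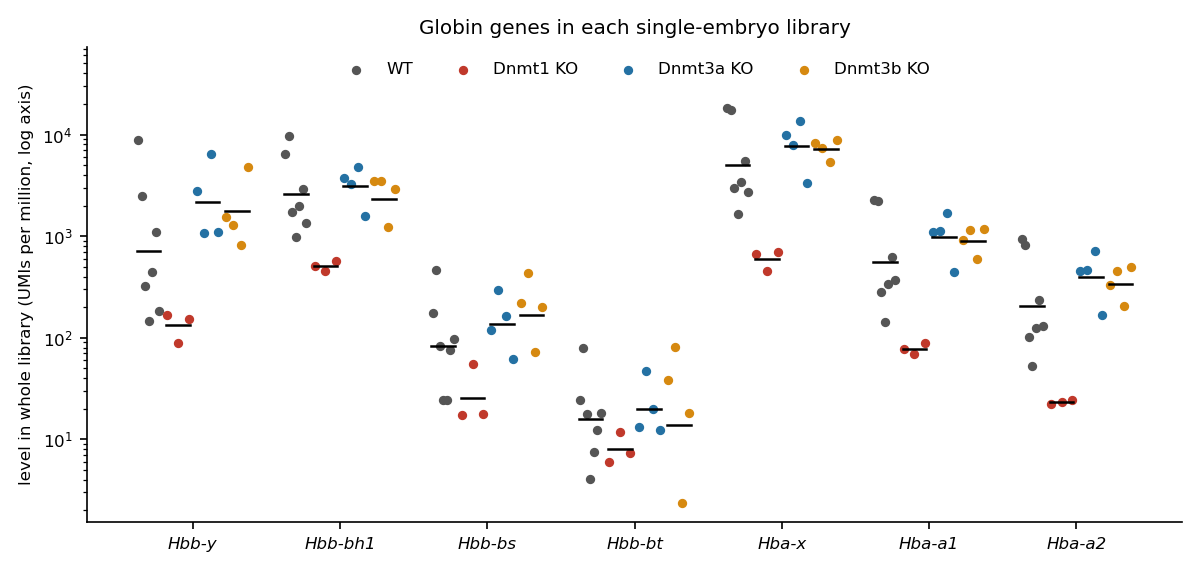
Level of each globin gene in every library, as CPM over all kept cells on a log axis, with 1 point per library and a black bar at the geometric mean over the replicates of each group. The Dnmt1 KO points of Hbb-bh1, Hba-x, Hba-a1 and Hba-a2 lie below all WT points, and the Dnmt3a KO and Dnmt3b KO points lie within the WT range except those of Hbb-bt in Dnmt3b KO 2 and 11.

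In all, 4 of the 7 genes were lower in Dnmt1 KO over whole libraries and 0 were higher, against 6.09% of the 18870 genes tested that were lower and 8.19% that were higher. The same 4 genes had every Dnmt1 KO library below every WT library, as did 20% of the 12610 genes with a mean of at least 1 CPM. The median log2 fold change was −3.48 over the 7 genes and 0.01 over all genes tested. These calls rested on 3 mutant embryos. Leaving out Dnmt1 KO 1 or Dnmt1 KO 2 left 0 of the 7 genes past the test, with all 7 log2 fold changes still negative, and leaving out Dnmt1 KO 3 left 1 (Hba-x). With Y-linked RNA as a covariate the same 4 genes passed, and with DESeq2 Hbb-y passed as well. Y-linked RNA was in all Dnmt1 KO libraries and in WT 2 alone among WT, so the covariate cannot set sex apart from genotype. With a block for replicate number 6 of the 7 genes passed, Hbb-bs and Hbb-bt among them. WT 4 to 7 have no Dnmt1 KO library of the same number, and WT 1 and 2 held the most globin RNA of WT (3.68% and 3.31%). Same-numbered libraries did not deviate together, so the block adds no weight to these calls. Fewer erythroid cells and less globin RNA per cell cannot be told apart in sums over a whole library. Other cell types moved as well: the 7 neural markers summed to 16.7 to 44.3 CPM in Dnmt1 KO and 92.3 to 177.5 in WT, and neural-like cells were 0, 0 and 1 against 36 to 132 per library. Their part in the fall of the globin genes was not tested.

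Dnmt3a KO libraries did not differ detectably. Hba-x was at 9809, 7811, 13487 and 3337 CPM, Hbb-bh1 at 3717, 3222, 4804 and 1566 CPM and Hbb-y at 2788, 1081, 6500 and 1088 CPM in Dnmt3a KO 1, 2, 13 and 14. All lay inside the WT range. None of the 7 genes passed the test, where 0.207% of all genes did, the log2 fold changes lay between −0.13 and 0.52, the smallest unadjusted p was 0.585 and the smallest adjusted p was 0.93 in edgeR, and DESeq2 called 0 as well. The standard errors, 0.54 to 0.93 on the log2 scale, leave room for sizeable changes in either direction.

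The libraries labelled Dnmt3b KO gave the same count. Hba-x was at 8188, 7411, 5317 and 8874 CPM, Hbb-bh1 at 3470, 3503, 1231 and 2886 CPM and Hbb-y at 1540, 1277, 814.0 and 4752 CPM in Dnmt3b KO 1, 2, 11 and 12. Hbb-bt, at 37.9, 81.6, 2.4 and 18.0 CPM, was the only gene with libraries outside the WT range, Dnmt3b KO 11 below it and Dnmt3b KO 2 just above it. None of the 7 genes passed the test (1.86% of all genes did), with log2 fold changes between −0.60 and 0.46, a smallest unadjusted p of 0.344 and a smallest adjusted p of 0.653 in edgeR, and 0 calls in DESeq2. Without Dnmt3b KO 11 and 12, whose Dnmt3a level was low, the group held 1 replicate (Dnmt3b KO 1 and 2). That setting cannot decide whether the 7 genes changed.

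To look at globin levels inside erythroid cells without choosing the cells by globin, cells were picked by the same 8 erythroid markers, and 9246 erythroid-like cells were found. They were 2.21% to 16.5% of the cells of a WT library and 0.799%, 0.553% and 0.743% of those of Dnmt1 KO 1, 2 and 3, few cells in each. In WT, 85.4% to 98.8% of them were also globin-rich (median 94.5%). In Dnmt1 KO they were 9 of 13, 12 of 20 and 15 of 27 cells, shares below every WT library. Of the 8 markers, Klf1, Alas2, Hemgn and Slc4a1 were themselves lower in Dnmt1 KO over whole libraries, so which cells were picked depends on genes that differ between the groups.

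Within erythroid-like cells, Hba-x fell in Dnmt1 KO. It was at 42443 to 81562 CPM in WT (median 53287) and at 38081, 23257 and 26158 CPM in Dnmt1 KO 1 to 3. Every Dnmt1 KO library lay below every WT library. The log2 fold change was −1.05 ± 0.22 (edgeR, adjusted p = 0.00257), close to the fold threshold of 1. Without Dnmt1 KO 2 it was −0.88 (adjusted p = 0.0399) and without Dnmt1 KO 3 it was −0.99 (adjusted p = 0.0182), so the call did not hold when either was left out, and over all 23 alternatives Hba-x missed the test in 9.

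The other embryonic genes moved less in these cells. Hbb-bh1 was at 19169 to 37221 CPM in WT (median 28768) and at 21129, 18388 and 17359 CPM in Dnmt1 KO, of which the last 2 were below every WT library (log2 fold change −0.63 ± 0.19, edgeR, adjusted p = 0.0276). Hbb-y was at 3414 to 40096 CPM in WT (median 6335) and at 9340, 4967 and 7941 CPM in Dnmt1 KO, inside the WT range (−0.79 ± 0.67, adjusted p = 0.485). Without WT 1, the highest library, the value for Hbb-y was 0.071.

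Hba-a1 and Hba-a2 did not pass the main test in erythroid-like cells, and for Hba-a2 this depended on the setting. Hba-a1 was at 4042 to 10235 CPM in WT and at 4420, 5433 and 3312 CPM in Dnmt1 KO (log2 fold change −0.68 ± 0.25, edgeR, adjusted p = 0.0789). Hba-a2 was at 1493 to 4216 CPM in WT and at 1319, 2664 and 1062 CPM in Dnmt1 KO (−0.69 ± 0.31, adjusted p = 0.149). Hba-a2 passed in 3 of 23 alternatives, among them cells with at least 5000 UMIs (−1.24, edgeR, adjusted p = 0.00969) and the cells left after adult-type cells, described below, were taken out (−1.23, adjusted p = 0.00905).

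The adult β genes had positive values that did not pass the test and leaned on 1 library. Hbb-bs was at 417 to 2294 CPM in WT (median 820) and at 819.9, 9957 and 971.9 CPM in Dnmt1 KO 1, 2 and 3 (log2 fold change 1.55 ± 0.57, edgeR, adjusted p = 0.0756). Hbb-bt was at 86.8 to 398 CPM in WT (median 158) and at 79.7, 1670 and 157.5 CPM in Dnmt1 KO (1.42 ± 0.74, adjusted p = 0.227). Over all erythroid-like cells Dnmt1 KO 2 alone stood above WT, and without it the log2 fold changes were −0.53 and −1.03. Hbb-bs passed in 1 alternative, the study's cell filters with doublets removed (2.31, edgeR, adjusted p = 0.00933). Hbb-bs levels without adult-type cells were taken from those erythroid-like cells that were also globin-rich. There Hbb-bs was at 1008, 2417 and 909.7 CPM in Dnmt1 KO 1 to 3, from 9, 9 and 15 cells. In WT it was at 379 to 896 CPM. These cells were thus chosen partly by globin. The alternative with adult-type cells taken out gave a log2 fold change of 0.70 (edgeR, adjusted p = 0.0504). This value should not be read against the levels just given.

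In erythroid-like cells, then, 1 of the 7 genes passed the test in Dnmt1 KO, against 1.75% of 11045 genes that were lower. Hba-x was also the 1 gene whose groups did not overlap, as was the case for 12.2% of genes in the same direction. The median log2 fold change was −0.68 over the 7 genes and −0.09 over all genes. None of the 7 passed in Dnmt3a KO (0.127% of all genes did), with log2 fold changes of −0.38 to 0.89 and a smallest unadjusted p of 0.0669, or in Dnmt3b KO (0.77%), with −0.28 to 0.84 and 0.0989, in edgeR or in DESeq2. The highest of these values were those of Hbb-y, at 0.89 ± 0.57 in Dnmt3a KO (edgeR, adjusted p = 0.672) and 0.84 ± 0.62 in Dnmt3b KO (adjusted p = 0.545). Hbb-y was at 20943, 9435, 37075 and 18954 CPM in Dnmt3a KO 1, 2, 13 and 14 and at 14530, 12883, 10385 and 39376 CPM in Dnmt3b KO 1, 2, 11 and 12, all inside the WT range that WT 1 sets at its upper end.

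Other cell types were looked for in the erythroid-like cells of Dnmt1 KO. The cells had been picked by the erythroid markers, with fewer than 3 UMIs from neural and from endothelial markers. The sums of those markers are thus shaped by the choice of cells. All 7 neural markers were at 0 there. Megakaryocyte markers summed to 40.7 to 56.9 CPM against 16.3 to 26.2 in WT, with Gp1bb at 0 and Ppbp at 0 in WT as well. Endothelial markers summed to 13.6 to 19.0 CPM against 5.56 to 16.6, with Emcn and Cdh5 at 0. Macrophage markers summed to 1.73 to 2.71 CPM against 0 to 0.312 in WT, with 3 of 4 markers at 0. The erythroid-like cells of a Dnmt1 KO library held 368339 to 579607 UMIs in all, so these macrophage sums rest on very few UMIs. The 8 erythroid markers summed to 1165 to 1216 CPM against 1215 to 1643. The part of other cell types in the level of Hba-x was not tested.

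Globin-rich cells fell into 2 kinds by their β genes. Of the 12610 cells, 8719 had under 2% of their β UMIs from Hbb-bs and Hbb-bt, 125 had at least 90%, and 7 lay between 50% and 90% (5 up to 75% and 2 above it). Cells with at least 50% are called adult-type below and the others embryonic-type. This division was drawn after the values were seen. It gave 132 adult-type and 12478 embryonic-type cells, and 51 of the embryonic-type cells lay between 25% and 50%. By the 8 non-globin markers, 88 adult-type and 8875 embryonic-type cells were erythroid-like.

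**Figure D2:**
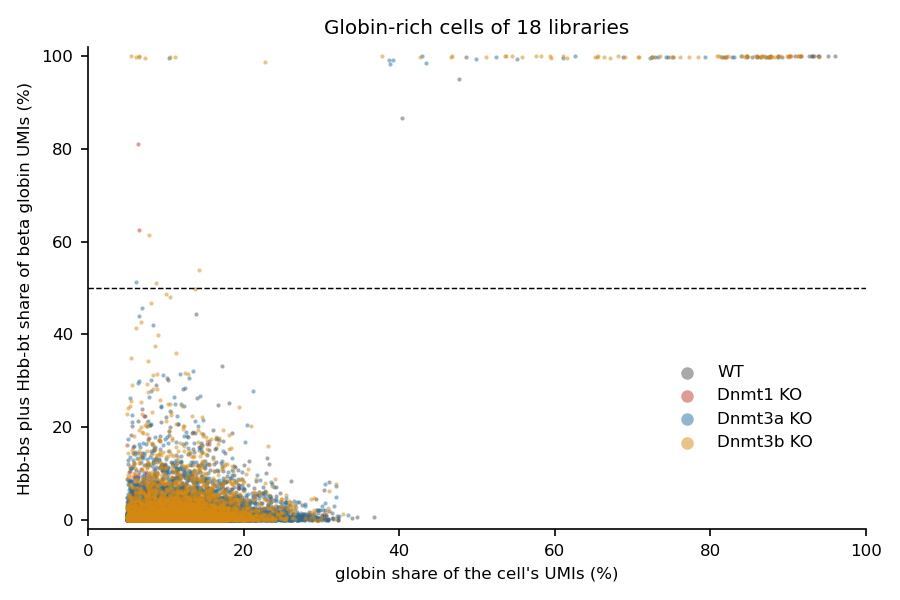
Every globin-rich cell by the percentage of its UMIs that came from the 7 globin genes (horizontal axis) and the percentage of its β-globin UMIs that came from Hbb-bs and Hbb-bt (vertical axis), with a dashed line at 50%. A dense group of 12478 cells lies below the line and below 40% globin, and a sparse group of 132 cells lies mostly near the top, at up to 96.1% globin.

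The embryonic-type cells carried the embryonic programme. Hba-x gave 45.1% to 64.5% of their globin UMIs in each of the 18 libraries. Hbb-bh1 gave 14.6% to 34.9% and Hbb-y 4.53% to 26.2%. These ranges overlap, and which of the pair was higher depended on the library.

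The adult genes made up the rest. Hba-a1 gave 4.70% to 7.80% and Hba-a2 1.64% to 2.996%, so that adult α genes were a regular part of the α RNA of these cells (10.1% to 16.1% of it). Hbb-bs gave 0.39% to 2.95% and Hbb-bt 0.02% to 0.37%. The order of the medians was Hba-x, Hbb-bh1, Hbb-y, Hba-a1, Hba-a2, Hbb-bs and Hbb-bt, and the ranges of Hbb-bh1 and Hbb-y, of Hbb-y and Hba-a1, and of Hba-a2 and Hbb-bs overlapped while those of the other neighbours in this order did not.

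WT 1 stood apart within WT. Hbb-y gave 24.1% of its globin UMIs and Hbb-bh1 17.4%, where the median WT library had 7.27% and 29.1%. Dnmt3a KO 13, with 23.8% and 17.4%, and Dnmt3b KO 12, with 26.2% and 15.4%, were alike. Dnmt3b KO 11 had the highest Hba-x share, 64.5%, with 14.6% Hbb-bh1. In Dnmt1 KO, Hba-x gave 45.1% to 49.5% of globin UMIs (WT 49.3% to 57.9%), Hba-a2 gave 1.64% to 1.69% (WT 1.70% to 2.57%) and Hbb-bs gave 1.01% to 2.95% (WT 0.387% to 0.717%). The Dnmt1 KO and WT ranges did not overlap for Hba-a2 and Hbb-bs and overlapped for Hba-x. No share over all genes was counted for these cells. For Hba-a2 the gap was from 1.694% in Dnmt1 KO 3 to 1.702% in WT 3. At 5% to 7.5% globin the groups overlapped, with 1.44%, 1.77% and 1.68% in Dnmt1 KO 1 to 3 and 1.53% in WT 3. The cells had been divided by Hbb-bs and Hbb-bt, which bears on the Hbb-bs share.

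**Figure D3:**
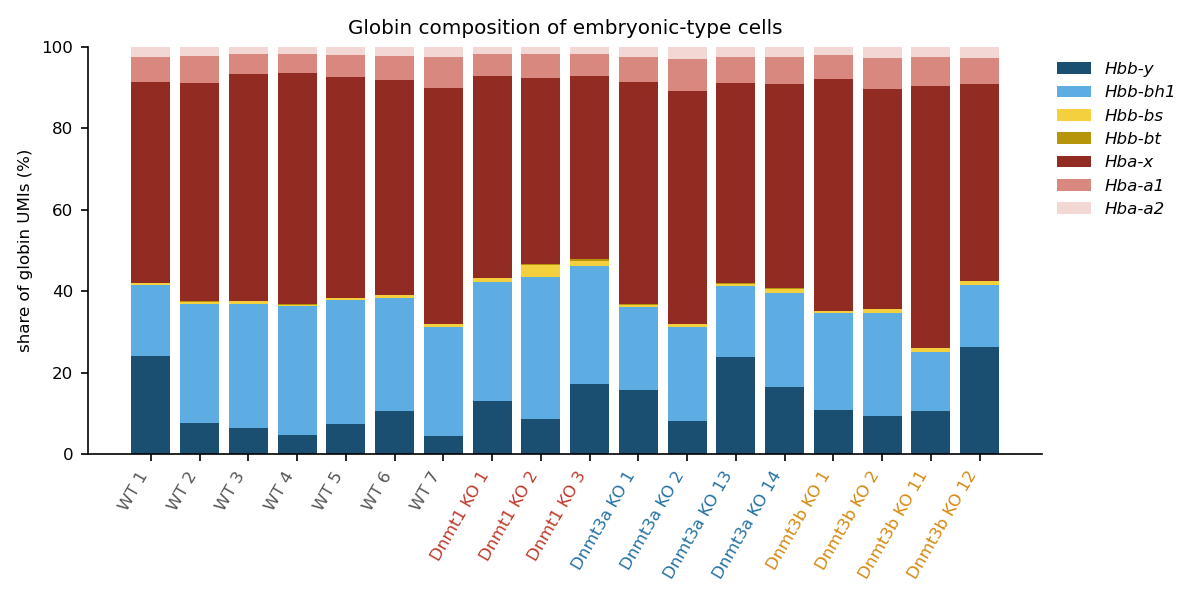
Share of each globin gene in the globin UMIs of embryonic-type cells, as stacked bars that sum to 100%, with 1 bar per library. Hba-x is the largest part of every bar, the parts of Hbb-y and Hbb-bh1 trade places between libraries, and WT 1 differs from the other WT libraries by its large Hbb-y part.

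Adult β RNA in embryonic-type cells was low but was read in a larger share of cells than in cells without erythroid markers. Both sets of cells were chosen partly by their globin UMIs, so the difference is a description. A UMI of Hbb-bs was seen in 59.1% to 100% of these cells per library (median 82.3%), and after each cell was thinned to 1500 UMIs in 31.5% to 77.8% (median 43.3%). In cells without erythroid marker UMIs and with under 5% globin, which should lack the gene, the share was 0.40% to 12.8% (median 6.32%), and 0.1% to 3.0% after thinning (median 0.7%). Those cells had a median of 3691 to 54123 UMIs. Hbb-bs gave 0.609% to 3.35% of their globin UMIs, against 0.39% to 2.95% in embryonic-type cells. For Hbb-bt the thinned shares were 3.59% to 22.2% (median 9.46%) against 0.0% to 0.6%. Hbb-y had a UMI in 77.8% to 100% of embryonic-type cells, against 4.83% to 95.1% of the cells without erythroid marker UMIs. After thinning these shares were 63.4% to 97.7% and 0.379% to 38.5%.

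Adult-type cells came from 11 libraries: 19 from WT 2, 7 from WT 3, 1 from WT 4, 3 from WT 7, 1 and 4 from Dnmt1 KO 1 and 2, 23 from Dnmt3a KO 2, and 28, 37, 2 and 7 from Dnmt3b KO 1, 2, 11 and 12. Dnmt3b KO 1 and 2 shared 20 of them, so 112 barcodes were distinct. The shares of the globin genes in them follow from how the cells were divided and are given as a description. Pooled over the 132 cells, 54.1% of their globin UMIs were Hbb-bs, 18.9% Hba-a1, 13.97% Hba-a2 and 10.2% Hbb-bt. Hba-x gave 2.31%, Hbb-bh1 0.484% and Hbb-y 0.0603%. The pooled shares do not hold for every library. Hba-x gave 57.4% in the 1 cell of Dnmt1 KO 1, 41.3% in Dnmt3b KO 11 and 14.9% in Dnmt3b KO 12. Elsewhere it gave at most 5.59% (Dnmt1 KO 2). The name adult-type thus refers to the β genes alone. In the embryonic-type cells the same pooled shares were 0.647%, 6.40%, 2.47% and 0.0808% for the adult genes and 52.6%, 21.4% and 16.5% for the embryonic ones.

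What the division did not use differed too, and these values are given without a test because the cells were divided after their values were seen. Globin was a median 76.7% of the UMIs of an adult-type cell (quartiles 55.0% and 87.2%) and 12.2% of those of an embryonic-type cell (quartiles 9.04% and 15.7%). At 40% globin or more there were 113 adult-type cells, 85.6% of them, and 0 of the embryonic-type cells, whose highest value was 36.8%. Adult-type cells were shallow, with a median of 2954 UMIs against 24507.5, and ribosomal protein genes gave a median 4.17% of UMIs against 28.2%.

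The erythroid regulators Klf1 and Gata1 were also lower in adult-type cells, by less per UMI pooled over cells than by the share of cells. Klf1, the erythroid Krüppel-like factor, had a UMI in 4.55% of adult-type and 81.6% of embryonic-type cells, and Gata1, a master regulator of erythroid genes, in 6.82% and 72.04%, shares that the difference in depth also moves. Per 10000 non-globin UMIs, pooled over cells, Klf1 was at 0.686 and 1.91 and Gata1 at 0.708 and 1.10. In adult-type cells these pooled values rest on the 4.55% and 6.82% of cells with a UMI and do not describe a typical cell. Alas2, the erythroid enzyme that starts heme synthesis, had a UMI in 91.7% of adult-type cells and was at 14.5 per 10000 non-globin UMIs, against 82.8% and 2.34 in embryonic-type cells. Scrublet marked 24 of the 132 adult-type cells as doublets and 900 of the 12478 embryonic-type cells. Markers of yolk sac endoderm (Ttr, Apoa1, Afp and Apom) were at 46.3 per 10000 non-globin UMIs in adult-type cells and at 2.02 in embryonic-type cells.

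Y-linked genes were read in both kinds of cell. In WT 2 the adult-type cells held 0 Y UMIs in 22306 non-globin UMIs, where its embryonic-type cells had 84.2 CPM of the same UMIs, and a difference was not detectable at this depth. In Dnmt3a KO 2 the values were 125 and 75.2 CPM of non-globin UMIs, and in Dnmt3b KO 1 and 2 they were 86.0 and 80.6, and 60.3 and 92.8. These values rest on 14, 3 and 8 Y UMIs in the adult-type cells of Dnmt3a KO 2, Dnmt3b KO 1 and Dnmt3b KO 2, and the origin of the adult-type cells was not tested.

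Few as they were, adult-type cells set much of the adult β level of some libraries. They held 75.3% of all Hbb-bs and Hbb-bt UMIs of Dnmt3b KO 2 and 67.6% of those of Dnmt1 KO 2. The pairs of copies were also split in another way: there were 28.4 to 41.5 Hba-a2 UMIs per 100 Hba-a1 UMIs in embryonic-type cells of all 18 libraries, and 58.2 to 87.7 in adult-type cells of 10 libraries, with 34.7 in the single adult-type cell of Dnmt1 KO 1. For Hbb-bt per 100 Hbb-bs the embryonic-type values were 13.7 to 29.0 in WT, 5.21 to 31.0 in Dnmt1 KO, 10.7 to 18.6 in Dnmt3a KO and 2.35 to 11.05 in Dnmt3b KO, so all 4 Dnmt3b KO libraries lay below every WT library, as did some of the Dnmt1 KO and Dnmt3a KO libraries. As stated above, reads of the copies cannot be fully told apart.

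Within embryonic-type cells of the WT, Dnmt3a KO and Dnmt3b KO libraries that could be compared, the β genes changed with globin content. In the 11 libraries with at least 20 such cells in both ranges compared, the share of Hbb-y in β UMIs rose from cells with 5% to 7.5% globin to cells with 15% to 20% globin, in 11 of 11 libraries and by 16.2 to 35.8 percentage points (median 27.0). The 11 include Dnmt3b KO 1 and 2, which share most barcodes, so they stand for 10 separate samples. In WT 2 it went from 10.5% to 31.5% and in WT 1 from 41.5% to 57.8%. The share of Hbb-bh1 in all globin UMIs was lower in the high range in 11 of 11, with changes of −10.7 to −3.89 points. Globin content and these shares come from the same UMIs, so the relation is a description. Its direction is that known for maturing primitive cells, and cell age itself was not measured. No Dnmt1 KO library had enough cells in both ranges. Over single cells the Spearman correlation of globin content with the Hbb-y share of β UMIs was −0.081, 0.22 and −0.031 in Dnmt1 KO 1 to 3, from 21, 18 and 44 cells, and 0.26 to 0.60 in the other libraries, so the relation is described for the latter.

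The α genes changed less over the same range. Hba-x as a share of α UMIs was 84.9% to 88.2% in the low range and was lower in the high range in 11 of 11 libraries, with changes of −3.93 to −0.58 points. Hba-a1 as a share of all globin was higher at high globin content in 7 of the 11 libraries and lower in 4. The switch along globin content was thus larger among the β genes than among the α genes in each of these libraries.

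**Figure D4:**
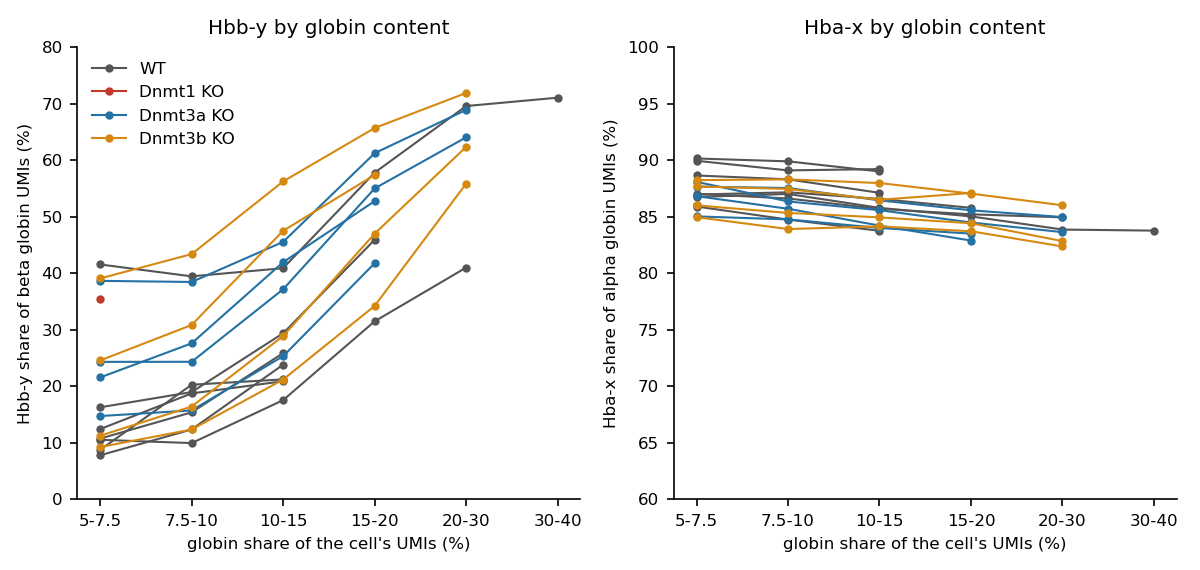
Left, Hbb-y as a percentage of β-globin UMIs, and right, Hba-x as a percentage of α-globin UMIs, in embryonic-type cells grouped by the percentage of their UMIs that came from globin genes, with 1 line per library and groups of at least 20 cells. The lines on the left start at different levels and end higher than they start in every library with more than 1 group, and the lines on the right run between 90.1% and 82.4% and end lower than they start.

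Libraries differed in where this relation started. The median cell had 4.42% to 54.8% of its β UMIs from Hbb-y in WT libraries and up to 62.4% in Dnmt3b KO 12. Cells with more Hbb-y than Hbb-bh1 were 0.67% of embryonic-type cells in WT 4, 56.7% in WT 1, 59.1% in Dnmt3a KO 13 and 71.5% in Dnmt3b KO 12. In Dnmt1 KO they were 9.52%, 5.56% and 34.1% of 21, 18 and 44 cells, and the Dnmt1 KO cells reached 20 in 1 range of globin content only.

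Ratios within globin-rich cells compare genotypes without regard to how many such cells a library held. The log2 ratio of Hbb-bh1 to Hbb-y was −0.47, 1.92, 2.24, 2.78, 2.08, 1.38 and 2.56 in WT 1 to 7, a mean of 1.78 ± 1.09 (SD, n = 7). Dnmt1 KO libraries had 1.32 ± 0.66, Dnmt3a KO libraries 0.48 ± 0.79 and Dnmt3b KO libraries 0.33 ± 1.03. Both Dnmt3a KO and Dnmt3b KO had lower means than WT, by 1.31 and 1.45, but every Dnmt3a KO library lay inside the WT range and the differences did not pass an exact two-sided permutation test (p = 0.0909 and 0.1, both 0.309 after Benjamini-Hochberg adjustment over the 12 ratio tests). Dnmt1 KO differed by −0.47 (exact permutation p = 0.5). Among the libraries counted on the mouse reference alone, which leaves out WT 1, the differences for the Dnmt1, Dnmt3a and Dnmt3b KO libraries were −0.84, −1.17 and −1.90 (exact permutation p = 0.0714, 0.143 and 0.0714). The smallest p that 3 against 7 libraries can give is 0.0167, and that for 4 against 7 is 0.00606, so no single ratio could pass alone after adjustment over 12 tests.

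The ratio of Hba-x to the adult α genes did not differ detectably. It was 2.72 ± 0.26 on the log2 scale in WT (n = 7) and different by −0.39, −0.25 and −0.18 in the Dnmt1, Dnmt3a and Dnmt3b KO libraries (exact permutation p = 0.333, 0.103 and 0.333). Dnmt1 KO 2, Dnmt3a KO 2 and Dnmt3b KO 2, at 1.52, 2.26 and 2.20, lay below the WT range of 2.42 to 3.11, and without Dnmt1 KO 2 the difference of −0.39 became 0.012. The ratio of adult to embryonic β genes was −5.06 ± 1.08 in WT. Its differences for the same 3 groups were 1.48, −0.00 and 0.50 (exact permutation p = 0.283, 0.994 and 0.5), and none passed the test. Dnmt1 KO 2 was at −0.84 where Dnmt1 KO 1 and 3 were at −5.02 and −4.89, and the difference of 1.48 was 0.11 without Dnmt1 KO 2 and 2.20 without Dnmt1 KO 1.

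The ratio of α to β RNA was the 1 ratio at which Dnmt1 KO and WT did not overlap. Its log2 value was 0.47 to 1.02 in WT (0.71 ± 0.16, n = 7) and 0.39, −0.09 and 0.13 in Dnmt1 KO 1 to 3. The difference was −0.57, with the smallest p that this design allows (exact permutation p = 0.0167), and it did not pass after adjustment over the 12 tests (0.2). It was −0.49 without adult-type cells, −0.56 in embryonic-type cells with 5% to 10% globin, and −0.61 among libraries counted on the mouse reference alone (exact permutation p = 0.0238, adjusted 0.286). Dnmt3a KO and Dnmt3b KO differed from WT by −0.00 and 0.20.

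Without adult-type cells the ratio of adult to embryonic β genes did not overlap between Dnmt1 KO and WT either. Hbb-bs and Hbb-bt were then 2.60%, 6.66% and 3.26% of β UMIs in Dnmt1 KO 1 to 3 and 1.27% to 2.53% in WT. The log2 ratio was 1.15 higher in Dnmt1 KO, a description without a test, since the cells were divided by these β genes after their values were seen. At 5% to 10% globin, cells of like globin content were compared. There the log2 ratio of adult to embryonic β genes overlapped, with −5.32 in Dnmt1 KO 1 and −5.20 in WT 7. In the same cells Hbb-bh1 to Hbb-y differed from WT by −1.05, −0.86 and −0.94 for Dnmt1, Dnmt3a and Dnmt3b KO (exact permutation p = 0.15, 0.152 and 0.25).

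**Figure D5:**
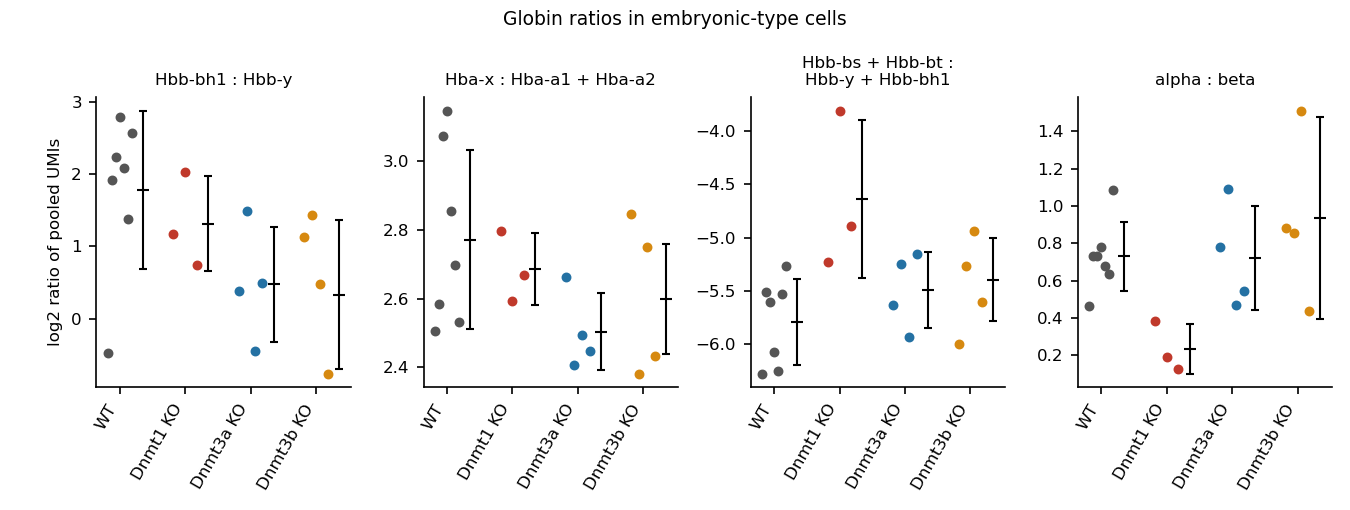
The 4 log2 ratios of globin UMIs in embryonic-type cells, with 1 point per library and the mean ± SD over replicates of each group. Dnmt1 KO points lie above WT for adult to embryonic β and below WT for α to β, and the Dnmt3a KO and Dnmt3b KO means of Hbb-bh1 to Hbb-y lie below the WT mean with overlapping points.

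The other genes of the pathway were read from lists of globin regulators, heme genes, membrane proteins and other globins. Of 6 other globins tested, 1 passed in Dnmt1 KO over whole libraries, Hbq1b, a θ-globin gene of the α cluster (fall of 2.99 ± 0.76 on the log2 scale, edgeR, adjusted p = 0.00518). The list median was −0.67, against 0.01 for all genes. Cygb (cytoglobin) and Hbb-bh2 (a β-like gene of the β cluster), the other most abundant members, had values of −0.84 and −1.17 and did not pass. Hbb-bh0 was not analysed here.

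Of 12 globin regulators, 2 fell and 1 rose in Dnmt1 KO over whole libraries, with a list median of −0.46, where 6.09% of all genes fell and 8.19% rose. Klf1, which activates β-globin genes, was at 21.1 ± 14.9 CPM in WT (SD, n = 7) and 3.74 ± 0.16 in Dnmt1 KO (n = 3), a fall of 2.46 on the log2 scale (edgeR, adjusted p = 0.00285). Lmo2, a bridging subunit of the GATA1 and TAL1 complex, fell by 1.21. Bcl11a, a repressor of embryonic globin genes in definitive cells, rose by 1.93 from 0.25 ± 0.08 to 0.95 ± 0.78 CPM, a level near the lower limit of these counts. This rise is over all cells. In erythroid-like cells Bcl11a was at 0 CPM in Dnmt1 KO and 0.23 ± 0.34 in WT, too few UMIs to compare. The abundant members Zfpm1 (a GATA1 cofactor) and Ldb1 (a looping factor at the β locus) had values of −0.94 and −0.44 and did not pass.

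Of 12 heme genes tested, 2 fell and 1 rose, against the same 6.09% and 8.19%, with a list median of −0.81. Alas2 fell by 2.82 on the log2 scale, from 24.6 ± 21.6 to 3.42 ± 0.45 CPM, and Slc25a37 (mitoferrin, which imports iron into mitochondria) by 1.98. Hmox1, which breaks heme down and is not confined to red cells, rose by 1.24. Cpox and Alad, abundant members that code for enzymes of heme synthesis, had values of −0.73 and −1.18 and did not pass. Ahsp was not analysed here.

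Of 9 membrane and receptor genes, 5 fell and 0 rose, again against 6.09% and 8.19%, with a list median of −1.88. Among them, Slc4a1 (band 3, the anion exchanger) fell by 4.58 on the log2 scale, Hemgn (hemogen) by 3.58, Ank1 (ankyrin) by 2.64 and Sptb (β-spectrin) by 1.59. Tfrc, the transferrin receptor, which dividing cells use in general, had a value of −0.35 and Epor, the erythropoietin receptor, −1.12, and neither passed. The summed level of the 8 erythroid markers over whole libraries was 31.1 to 41.0 CPM in Dnmt1 KO and 47.8 to 366 in WT, without overlap.

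Inside erythroid-like cells of Dnmt1 KO 4 members of the lists fell, where 1.75% of all genes did. Among 3 other globins tested none passed, among 11 regulators 1 (Zfpm1, fall of 1.11 on the log2 scale), among 12 heme genes 2 (Urod, an enzyme of heme synthesis, fall of 1.13, and Slc25a37, fall of 1.04) and among 9 membrane genes 1 (Hemgn, fall of 1.29). The list medians were 0.30, 0.26, −0.56 and −0.28, against −0.09 for all genes. Klf1 was at 175 ± 17 CPM in WT and 108 ± 2.9 in Dnmt1 KO, a value of −0.79 that is under the fold threshold. In Dnmt3a KO and Dnmt3b KO no member of any list passed the test over whole libraries or in erythroid-like cells, in edgeR.

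Over the 17 replicates, genes among the 8 whose whole-library level followed the summed globin level most closely were Hemgn, with a Spearman correlation of 0.998, Ermap (0.993), Alas2 (0.990), Mrap (0.990), Hbq1b (0.988), Ppox (0.985) and Cldn13 (0.985), out of 13163 genes. Hemgn, Alas2, Hbq1b and Ppox are among the pathway genes listed above. The 17 points share their libraries and differ in how many erythroid cells they hold, so the order is a description.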

How the data were processed

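Single E8.5 embryos were dissociated and profiled with the 10x Genomics 3′ v3 assay, 1 embryo per library. The values used are raw UMI counts per gene and barcode that the authors deposited after Cell Ranger (3.1.0 or 5.0.0 per the file headers). Groups and replicate numbers were taken from the labels, and no column belonged to another sample (0). Barcodes with at least 1500 mouse UMIs were kept. Doublets were left in, except in an alternative that removed cells marked by Scrublet (0.8% per 1000 cells) and applied the study's limits of 30% mitochondrial and 35% ribosomal UMIs. Erythroid-like cells had at least 3 UMIs and 0.1% of UMIs from 8 non-globin erythroid markers and fewer than 3 UMIs from neural and from endothelial markers. Counts were summed per library over all kept cells or over erythroid-like cells and compared in 1 fit over 17 replicates with edgeR 4.0.16 (quasi-likelihood, TMM, filterByExpr, Benjamini-Hochberg). A gene passed when its adjusted p was below 0.01 and its log2 change was 1 or larger in size. DESeq2 1.42.0 was an alternative. Log2 ratios of pooled UMIs (0.5 added to each count) in globin-rich cells were compared by exact two-sided permutation tests, adjusted over 12 tests at a threshold of 0.05. Python 3.11.15, scipy 1.17.1, scanpy 1.11.5 and R 4.3.3 were used, and each test was first checked on simulated counts. Counts at each depth limit precision: the fewest erythroid-like cells in a library were 13.

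The 7 genes and the gene lists were chosen with earlier results of these data known. Genes outside the 7 are named where they passed a test or were among the 3 highest of their list, and by likeness where they were among the 8 highest correlations with the summed globin level, and cell markers are named where they describe a cell type. Alternatives were other normalization, filters, UMI minimum, globin threshold, covariates for Y-linked RNA and for the counting reference, a replicate block, and leaving out each replicate. Same-numbered libraries of different groups did not deviate together. Some genes that this rule names are not reported here.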

Additional observations from a re-analysis of the deposited data

Results flagged for a closer look

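Of 48 sets of library values tested for a single library far from the rest, 6 had one, where chance gives about 1 in 20. In WT 1, Hbb-y over all cells was at 8808 CPM, where the next WT library had 2480, and in erythroid-like cells it was at 40096 CPM, where the next had 11449. The log2 ratio of Hbb-bh1 to Hbb-y in WT 1 was −0.47, where the next WT library had 1.38. In WT 2, Hbb-bs over all cells was at 467 CPM (next 175.0) and Hbb-bt at 79.9 CPM (next 24.2). In the erythroid-like cells of Dnmt3a KO 2, Hbb-bs was at 2228 CPM, where the next Dnmt3a KO library had 1052. WT 1 was the only WT library counted on the combined reference. WT 2 and Dnmt3a KO 2 held 19 and 23 adult-type cells. The part of these in the values was not tested.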

How the results depend on the processing

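Over whole libraries in Dnmt1 KO, all 7 genes kept their negative sign under every alternative run. With the replicate block 6 of the 7 passed, Hbb-bs (−2.86) and Hbb-bt (−2.01) among them. The counts of genes past the test moved: in Dnmt1 KO 1414 of the 18870 genes tested passed with the replicate block over whole libraries, and 1937 to 3174 when a replicate was left out. In erythroid-like cells of Dnmt1 KO, 215 to 456 passed when a replicate was left out, with 236 without Dnmt1 KO 1 and 215 without Dnmt1 KO 2. For Dnmt3a KO over whole libraries 110 passed with DESeq2, 66 with Y-linked RNA as a covariate, 77 without Dnmt3b KO 11 and 12, 1 with the replicate block and 23 to 69 when a replicate was left out. In erythroid-like cells 24 passed with DESeq2, 25 with the Y covariate, 8 with the reference covariate, 5 in globin-rich cells, 29 without Dnmt3b KO 11 and 12, 6 with the block and 2 to 22 when a replicate was left out. For Dnmt3b KO over whole libraries 87 passed without Dnmt3b KO 11 and 12, 5 with the block and 194 to 482 when a replicate was left out (350 without Dnmt3b KO 11). In erythroid-like cells 145 passed with the Y covariate, 15 without Dnmt3b KO 11 and 12, 12 with the block, and 39 to 149 when a replicate was left out, the highest without Dnmt3b KO 1 and 2 (103 without Dnmt3b KO 11).

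Single genes changed sign in erythroid-like cells of Dnmt1 KO. Hbb-bs was −0.53 without Dnmt1 KO 2 and up to 2.06 with another replicate left out. Hbb-bt was −1.03 without Dnmt1 KO 2 and up to 1.97 with another replicate left out, −0.85 with at least 5000 UMIs per cell and −0.049 without adult-type cells. Hbb-y was 0.070 with the Y covariate, and −0.99 to 0.071 when a replicate was left out, the highest without WT 1. In Dnmt3a KO all 7 genes, and in Dnmt3b KO 6 of 7 over whole libraries and 7 of 7 in erythroid-like cells, changed sign in at least 1 alternative. With the block, Hbb-y was −0.33 in Dnmt3a KO and −0.38 in Dnmt3b KO. Hba-x lay between −0.73 and −1.32 over 23 alternatives and did not pass in 9 of them. Hba-a2 passed with the block (−1.08, edgeR, adjusted p = 0.00448).

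No ratio passed in a setting, but a single ratio could not pass after adjustment over 12 tests, so this does not speak to stability. Hba-x to adult α in Dnmt1 KO was −0.63 to 0.012 when a replicate was left out. It was 3.50 in Dnmt3a KO and 3.81 in Dnmt3b KO at 20% globin or more, and 0.028 in Dnmt3b KO at 20% to 40%. WT 3 had 7 cells at 20% or more and 0 at 20% to 40%. Its 7 adult-type cells held 0 Hba-x, 0 Hbb-y and 0 Hbb-bh1 UMIs, where the 0.5 added to each count stands in for them. Adult to embryonic β in Dnmt3b KO was −2.89 at 20% or more. In Dnmt3a KO, at −0.00, it was 0.50 at 10% to 20%, 1.31 at 20% to 40%, 0.27 at 5000 UMIs, 0.52 in embryonic-type cells at 5% to 10%, 0.034 at 2% or more, 0.12 as a mean over cells, 0.51 on the mouse reference alone, 0.57 with the study's filters, 0.30 without adult-type cells and −0.51 to 0.29 when a replicate was left out. The α to β ratio in Dnmt3a KO, at −0.00, was 0.16 in embryonic-type cells at 5% to 10%, 0.011 at 2% or more, 0.26 at 20% or more, 0.044 as a mean over cells, 0.040 on the mouse reference alone and −0.11 to 0.077 when a replicate was left out. In Dnmt3b KO it was −0.13 on the mouse reference alone and −0.092 to 0.45 when a replicate was left out, the lowest without Dnmt3b KO 11. The cause of these changes was not tested. Same-numbered libraries correlated at −0.271 to 0.206 in their deviations from group means, over 0.1 in 3 of 13 pairs, so the numbers did not pair them. Dnmt1 KO ratios at 20% or more had too few cells, and no Dnmt3b KO ratio was tested without Dnmt3b KO 11 and 12.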
